A study of Macaca mulatta with 32 samples.

Results

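Circular RNAs (circRNAs) from 9 genes of synaptic and axonal adhesion were examined in the rhesus macaque brain, namely NRXN3, NLGN1, MDGA1, MDGA2, CNTN1, CNTN4, CNTN5, CNTNAP2 and CADM2. Every circRNA whose host gene carried 1 of these symbols was taken, which gave 107 of the 52828 circRNAs listed. A circRNA is a closed loop made when the end of an exon is joined back to an upstream start, and the reads that cross this back-splice junction are what was counted here. RNA was treated with RNase R, which digests linear RNA, before sequencing. The 32 libraries came from 8 regions with 4 libraries in each. They were the cerebellum (CB), the hippocampal fields CA1 and dentate gyrus (DG), and 5 areas of neocortex, prefrontal (PFC), posterior cingulate (PCC), temporal (TC), parietal (PC) and occipital (OC). The 4 libraries of a region were the pools 10F, 10M, 20F and 20M, each of which mixed RNA from 2 animals of 1 sex, aged 10 or 20 years. The same 8 animals therefore stood behind every region. The main fits had no term for the pool, so a p-value here measures the spread between pooled libraries and not between single animals. Libraries of the same pool were treated as independent, also in the exact tests, which permuted all 32 libraries. Levels are TPM values as deposited, which within a library are proportional to back-splice reads. They did not add up to a common total, with sums from 107695.16 TPM (DG of pool 20F) to 352188.37 TPM (CB of pool 10F). A value of 0 means that fewer than 2 back-splice reads were found.

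Neurexins such as NRXN3 sit on the presynaptic membrane and bind neuroligins such as NLGN1 across the synaptic cleft. The MDGA proteins are anchored to the membrane by a lipid tail and bind neuroligins on their own side, which blocks the neurexin site. Contactins are immunoglobulin-domain proteins with the same kind of anchor that act in axon guidance, myelination and synapse formation, CNTNAP2 (Caspr2) is a neurexin-related partner of contactins that gathers potassium channels next to the node of Ranvier, and CADM2 (SynCAM 2) is an adhesion molecule of axons and synapses. Most of these genes are very long, and how much linear mRNA they made was not measured in these libraries.

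The sequencing depth set the precision of every value below. The libraries held between 18813 and 894932 back-splice reads, with a median of 179118. The shallowest was the CB library of pool 10F, in which 1 read was worth 18.7 TPM, and it is named wherever a result rested on it. In the study 5 libraries had an unusually high share of clean reads (pool 20F in PFC and PCC, pool 10M in PC, pool 20M in CA1 and DG), and each limma comparison was repeated without them. The members together took 5055 of 7159279 back-splice reads, 0.0706%, and their summed level ran from 46.1 to 282.03 TPM per library with a median of 157.8.

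CNTN1, MDGA2, CNTN5 and NRXN3 carried most of the signal. CNTN1 gave 1564 back-splice reads from 23 circRNAs, MDGA2 1527 reads from 16, CNTN5 909 reads from 22 and NRXN3 716 reads from 25. MDGA1 gave 144 reads from 3 circRNAs, of which 138 were in the cerebellum. CADM2 (69 reads, 5 circRNAs), CNTN4 (68 reads, 5 circRNAs) and CNTNAP2 (52 reads, 7 circRNAs) were found in 8, 4 and 8 libraries, and the single circRNA of NLGN1 had 6 reads in 1 library, PFC of pool 10F. Of the 107 circRNAs, 27 passed the filter of the study on low values, 9 from NRXN3, 8 from CNTN5, 5 from MDGA2, 4 from CNTN1 and 1 from MDGA1. No circRNA of CNTN4, CNTNAP2, CADM2 or NLGN1 passed it. The 27 held 83.9% of the members' reads, and 25.2% of members passed against 32.3% of all circRNAs.

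**Figure D1:**
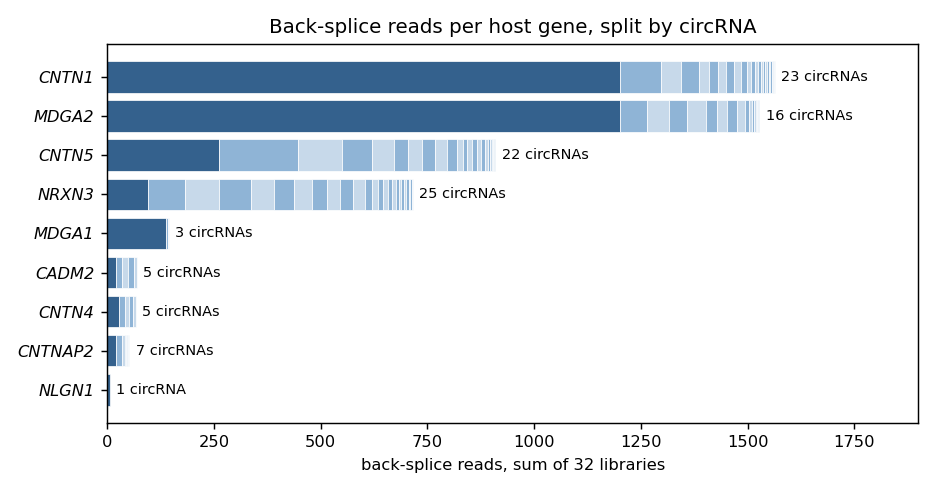
Back-splice reads summed over the 32 libraries (horizontal axis) for each of the 9 host genes, with each bar cut into its circRNAs from the most to the least read; the darkest piece is the leading circRNA. A single circRNA made up 76.7% of CNTN1 and 78.7% of MDGA2, while the leading circRNA of NRXN3 made up 13.4%.

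The genes differed in how their reads were divided. In CNTN1 the circRNA at chromosome 11, 37811292 to 37827842 on the plus strand, spanned 16551 bases and held 1200 of the 1564 reads, 76.7%; it was found in 25 libraries and all 8 regions. In MDGA2 the circRNA at chromosome 7, 110002792 to 110118166 on the minus strand, spanned 115375 bases of the gene and held 1202 of 1527 reads, 78.7%, in 28 libraries and all 8 regions. These 2 circRNAs took 47.5% of all member reads. CNTN5 was less concentrated, its leading circRNA (chromosome 14, 98901511 to 98916439) holding 28.9% of the reads in 17 libraries and the next (98450344 to 98474141) 20.1% in 11 libraries. NRXN3 had no dominant circRNA. Its leading one (chromosome 7, 141839760 to 141845994) had 96 reads in 6 libraries, and a longer one from the same start, 141839760 to 141915530, had 73 reads that all came from PFC of pool 20F. All positions are those of the deposited table, whose genome build is not given in the sources used here. All of these circRNAs were annotated as exonic.

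Members shared splice ends within a gene about as often as circRNAs in general. Of the 107 circRNAs, 82 began or ended where another circRNA of the same gene did. This was close to the share among all exonic and intronic circRNAs with a gene symbol, 73.2%. In CNTN1 the start at 37811292 was used by 3 circRNAs with 83.8% of the reads of the gene, and in MDGA2 the position 110002792 was used by 4 circRNAs with 83.0%. In CNTN5 7 ends were each used by 3 or 4 circRNAs, and the most used, 98916439, took 33.7% of the reads. None of the circRNAs of MDGA1 and CNTNAP2 shared an end. The members spanned longer stretches than the other 41102 exonic and intronic circRNAs, with a median of 19884 bases against 6268, and 29.9% spanned at least 50000 bases against 8.07%. Intronic circRNAs were 27.1% of members and 16.7% of the others. Of the members 54.2% were found in 1 library only, and of the others 53.1%. These shares are descriptions, and the span is the genomic distance and not the length of the spliced loop.

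With all 32 libraries and the filter on low values, every call limma made among the members on the log2(TPM + 2.455) scale was in the cerebellum. The leading MDGA1 circRNA was high there and nearly absent elsewhere, no circRNA of CNTN5 was found there, and the circRNAs of MDGA2 were low. CNTN1 circRNAs were present in all 4 cerebellar libraries, and those of NRXN3 in 3. In a limma fit over all circRNAs that passed the filter, 2.01% were higher in CB than in the mean of the other 7 regions and 0.669% were lower at an adjusted p under 0.05. Of the 27 members, 1 was higher (MDGA1) and 0 were lower, and 5 had an unadjusted p under 0.05, as did 1802 of all 17050. With the circRNAs of a gene summed, 3.34% of 3834 host genes were higher in CB and 3.42% lower, and of the 6 members tested at this level 0 were higher and 2, CNTN5 and MDGA2, were lower. The median difference of the 6 was -0.51 on the log2 scale and that of all host genes 0.05.

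**Figure D2:**
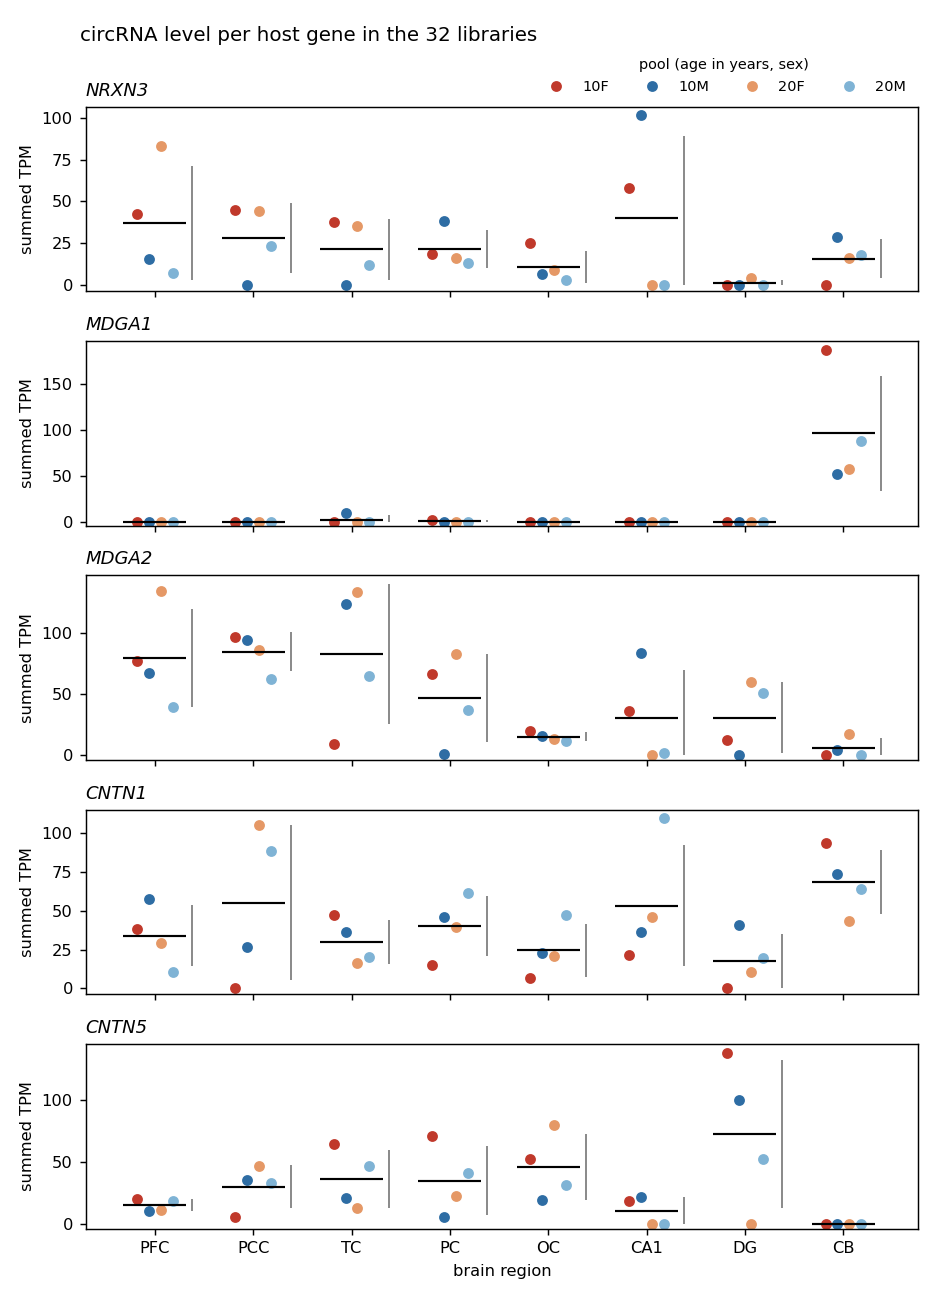
Summed circRNA level (TPM, vertical axis) of 5 host genes in each of the 32 libraries, by region (horizontal axis); points are pools, black lines the mean of 4 libraries and grey lines 1 SD either side, drawn down to 0. MDGA1 lies at 52.6 to 187.21 TPM in CB and at 0 in 26 of the other 28 libraries, and CNTN5 is at 0 in all 4 CB libraries.

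MDGA1, which codes for a blocker of neuroligin binding, was represented by the exonic circRNA at chromosome 4, 37431099 to 37433325 on the minus strand (2227 bases), called circMDGA1 here. Its level in CB was 149.8 TPM in pool 10F, 48.1 in 10M, 57.6 in 20F and 87.9 in 20M, from 8, 32, 53 and 40 back-splice reads. Outside CB it was found with 2 reads in TC of pool 10M (10.3 TPM) and 4 reads in PC of pool 10F (2.59 TPM), and the other 26 libraries were at 0. All 4 cerebellar libraries lay above all 28 others, which held for 0.311% of the circRNAs that passed the filter, and circMDGA1 passed that filter through its cerebellar reads. The highest value rested on the shallowest library, where 8 reads gave a 95% Poisson interval of 64.7 to 295.1 TPM; this interval covers counting error only and overlaps that of pool 20M, 62.8 to 119.7 TPM. On the log2(TPM + 2.455) scale the difference of CB from the other regions was 4.91 ± 0.32 (SE; limma, adjusted p = 3.2e-11), and it was 4.60 without the shallowest library. With no filter on low values the adjusted p was 7.0e-12, and over 14 settings it ran from 5.6e-13 to 2.4e-05. An exact two-sided permutation test over the 35960 choices of 4 libraries gave p = 2.8e-05, the smallest it can give. It was run on the same values as the limma fit, for a circRNA admitted by its cerebellar reads, so it is not separate support. The other circRNAs of MDGA1, at 37425039 to 37425850 and 37435617 to 37437235, had 3 reads in CB of pool 10M and 2 reads in CB of pool 10F and were found nowhere else.

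MDGA2, the paralogue with the same activity, had the opposite order. Its summed level was 76.9, 67.0, 134.5 and 39.3 TPM in PFC (10F, 10M, 20F, 20M), 97.0, 94.4, 85.9 and 62.3 in PCC, and 9.42, 123.5, 133.3 and 65.2 in TC. It was 66.1, 1.21, 82.9 and 37.0 in PC, 20.1, 15.5, 13.3 and 11.3 in OC, 36.6, 83.7, 0 and 1.73 in CA1, and 12.03, 0, 59.5 and 50.95 in DG. In CB it was 0, 4.51, 17.4 and 0 TPM. The region means therefore ran from PCC (84.9 ± 15.8 TPM, SD, n = 4), TC (82.9 ± 57.4) and PFC (79.4 ± 40.0) through PC (46.8 ± 35.8), DG (30.6 ± 29.1) and CA1 (30.5 ± 39.3) to OC (15.1 ± 3.78) and CB (5.47 ± 8.22), and neighbours in this order overlapped. OC was the tightest group, and all of its 4 values were below every value in PFC and PCC. The host gene was lower in CB by -2.66 ± 0.81 on the log2 scale (limma, adjusted p = 0.039; exact permutation p = 0.030 on TPM).

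The MDGA2 call was lost in 7 of 14 other settings, over which its adjusted p ran from 0.022 to 0.26, with 0.054 for a pseudocount of 1 and 0.26 for voom, a count-based variant of limma. In the shallowest CB library 3 reads would be 56.2 TPM, so its 0 says little, and without it the difference was -2.28 (adjusted p = 0.19); without pool 10F or 20M in all regions the adjusted p was 0.24 and 0.23. The leading MDGA2 circRNA alone, with 0, 3, 16 and 0 reads in CB, differed by -2.11 ± 0.83 and did not pass (adjusted p = 0.25). In the same 4 libraries the level of MDGA1 exceeded that of MDGA2 in every pool, also where a 0 of MDGA2 is set to 3 reads (187.21 against 56.2 TPM in pool 10F), while in the other 28 libraries MDGA1 was never above MDGA2; this pair was set side by side after its values were seen, and no test is given.

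CNTN5 and CNTN1, both contactins, also parted in the cerebellum. The summed level of CNTN5 was 0 in all 4 CB libraries. Elsewhere it was found in 25 of 28 libraries, at 138.4, 99.98, 0 and 52.7 TPM in DG (10F, 10M, 20F, 20M), 52.6, 19.7, 79.7 and 31.3 in OC, 70.6, 5.43, 22.8 and 40.9 in PC and 64.3, 20.6, 13.0 and 46.4 in TC. It was 5.62, 35.4, 46.8 and 32.8 TPM in PCC, 19.9, 10.4, 11.4 and 18.1 in PFC, and 18.3, 21.8, 0 and 0 in CA1. The highest mean was in DG (72.8 ± 59.8 TPM) and the lowest outside CB in CA1 (10.0 ± 11.7), and both overlapped the region next to them in the order. The difference of CB from the others was -3.31 ± 0.73 on the log2 scale (limma, adjusted p = 0.0027; exact permutation p = 0.039 on TPM and 0.00097 on log2 values), and it passed in all 14 other settings, with the highest adjusted p, 0.043, without pool 20M. Summed over libraries, 909 of 6672398 back-splice reads outside CB were from CNTN5 and 0 of 486881 in CB. With 3 reads set for the 4 CB libraries the ratio of these rates is 22.1-fold. It takes no account of the spread between libraries, and PCC of pool 20F alone held 153 of the 909 reads. The pooled rate outside CB also hides differences between regions. CNTN5 held from 12 of 1010595 reads in CA1 to 250 of 996353 in OC. In CA1 of pool 20M it held 0 of 811958, so a low rate was not found in CB alone. The cerebellar zeros do not weigh the same, since 3 reads are 56.2 TPM in pool 10F but 4.51, 3.26 and 6.60 TPM in the other three.

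The low level of CNTN5 in CB was spread over its circRNAs. The leading one was found in 17 of 28 libraries elsewhere and the next in 11, and none of the 22 was found in CB. Taken 1 by 1, 0 of the 8 that passed the filter were called (limma, 1 at an unadjusted p under 0.05, log2 differences from -1.77 to -0.17, lowest adjusted p = 0.37), and the call was made on their sum. A circRNA at 98827181 to 98861436 accounted for much of the DG level in the younger pools, with 72.2 TPM in 10F and 99.98 TPM in 10M from 12 and 22 reads, and was at 0 in DG of pools 20F and 20M. Its log2 difference was 2.27 ± 0.65 for DG (adjusted p = 0.23) and -1.19 ± 0.38 for 20 against 10 years (adjusted p = 0.71) in limma. The short circRNA at 98473732 to 98474141 (410 bases) was found in PC alone, with 19 reads in pool 10F and 11 in pool 20F, and came nearest to a call outside CB (log2 difference 1.16 ± 0.30, limma adjusted p = 0.076). It passed in 4 of 13 other settings, among them without pool 10M or 20M and without the 5 libraries, with adjusted p from 0.0039 to 0.58 over all 13.

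CNTN1 was the most widely found member, in 30 of 32 libraries. Its summed level in CB was 93.6, 73.6, 43.5 and 63.8 TPM (10F, 10M, 20F, 20M). The 93.6 TPM rested on 5 reads of the shallowest library. CB had the highest regional mean in TPM (68.6 ± 20.9 TPM). It was followed by PCC (55.1 ± 50.0), CA1 (53.4 ± 39.0), PC (40.4 ± 19.3), PFC (33.9 ± 19.6), TC (29.98 ± 14.2), OC (24.4 ± 17.0) and DG (17.6 ± 17.4), with overlap between neighbours throughout. By reads summed over the libraries of a region, CB was not the highest. The share was highest in CA1 (409 of 1010595 reads), then PCC (381 of 1219956) and CB (123 of 486881). It was lower in the other regions. In single libraries the summed level ran from 0, in PCC and DG of pool 10F, to 109.8 TPM in CA1 of pool 20M. That CA1 library held 381 of the 1564 reads. On the log2 scale CB was 1.27 ± 0.70 above the others, which did not pass in limma (adjusted p = 0.32), and the exact permutation test gave p = 0.033 on TPM and p = 0.066 on log2 values. Exact tests of single host genes are given without adjustment and with the shallowest library kept. The start of the leading circRNA was shared by a shorter one, 37811292 to 37813017, found in 7 libraries with 97 reads.

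**Figure D3:**
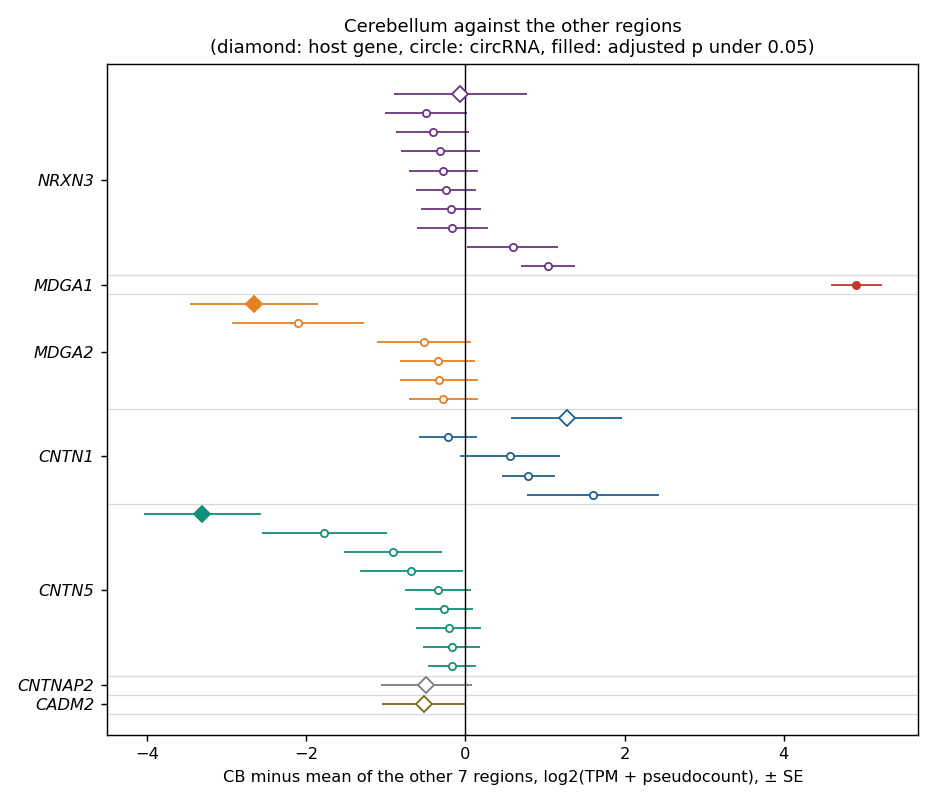
Difference of CB from the mean of the other 7 regions (horizontal axis, log2 scale, ± SE) for the 27 circRNAs that passed the filter (circles) and the 6 host genes tested (diamonds), by gene; filled symbols passed an adjusted p of 0.05 in limma. MDGA1 stands alone at 4.91, and the CNTN5 and MDGA2 host genes lie at -3.31 and -2.66 while their single circRNAs did not pass.

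NRXN3 was not called in CB by its summed level, and its few reads there came from 4 circRNAs. Its summed level in CB was 0, 28.6, 16.3 and 17.6 TPM (10F, 10M, 20F, 20M), and in the other libraries it ran from 0 to 101.8 TPM with 21 of 28 above 0. The log2 difference was -0.06 ± 0.84 (limma, adjusted p = 0.97; exact permutation p = 0.62 on TPM and p = 0.95 on log2 values), with a change of sign when the shallowest library was left out (0.74). The highest regional mean was in CA1 (39.9 ± 49.5 TPM, from 57.9 and 101.8 TPM in the pools aged 10 years and 0 in both pools aged 20 years). PFC (37.0 ± 34.2) and PCC (27.99 ± 21.2) came next. The lowest was DG (1.03 ± 2.06), where 2 reads were found in 1 of 4 libraries. DG was -2.41 ± 0.84 from the other regions, which did not pass (limma, adjusted p = 0.18).

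The 42 NRXN3 back-splice reads of CB came from 4 circRNAs, the first of which starts at position 142680723, towards the 3′ end of the gene. This position was taken from the CB reads themselves, so that all of them lie past it by construction, and no test is given. In the other regions 158 of 674 reads came from circRNAs that start there or later, 23.4%, of which 101 were in the PCC library of pool 20F. Without that library it was 57 of 530 reads, 10.8%. Reads from circRNAs that start before it were held by 20 of the 28 libraries. Neurexin genes use alternative promoters for a long α and a shorter β form, which share the exons at the 3′ end. The circRNA at 142879518 to 142913620 was found in 3 CB libraries (5, 3 and 4 reads in 10M, 20F and 20M) and in none of the other 28. The circRNA at 142907852 to 142913620, with the same end, had 8 and 6 reads in CB of pools 10M and 20F and 21 in PCC of pool 20F, and differed by 1.04 ± 0.34 (limma, adjusted p = 0.11; 0.026 without the shallowest library, and 0.026 to 0.83 over 13 other settings). Reads of 1 library are not independent, the boundary was set at the first start seen in CB, and the intervals cover counting error only, so no test is given.

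**Figure D4:**
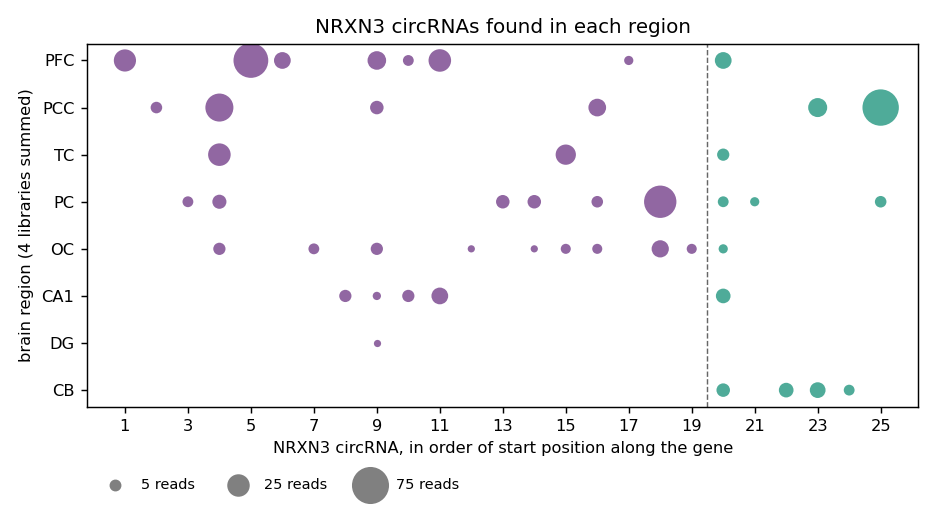
The 25 NRXN3 circRNAs in order of their start along the gene (horizontal axis) against brain region (vertical axis), with the area of a dot growing with the back-splice reads summed over 4 libraries; the dashed line marks the first start found in CB. By this choice the 4 circRNAs of CB lie on the line or to its right, and DG shows 1 circRNA with 2 reads.

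Levels of cell-type genes moved with the cerebellar differences. Of 15 cerebellar neuron markers 9 had circRNAs, and their summed level was 372.6 to 861.1 TPM in CB and 8.35 to 180.3 TPM elsewhere, with ZIC1 and RORA at 0 in CB. Of 10 markers of neocortical and hippocampal excitatory neurons 8 had circRNAs, with 36.1 to 78.2 TPM in CB and 238.2 to 1564 TPM elsewhere, and CAMK2A and GRM5 were at 0 in all CB libraries and in those of no other region, while SLC17A7 and CHRM1 were at 0 in CB and in other regions too. The glutamate receptor gene GRM4 was higher in CB (124.5 ± 52.4 against 3.41 ± 8.41 TPM; log2 difference 5.04 ± 0.56, limma adjusted p = 4.8e-08), and GRM5 was lower (0 in 4 libraries against 122.5 ± 68.0 TPM). Astrocyte markers summed to 0 in CB and to 0 to 36.7 TPM elsewhere (5 of 6 with circRNAs), oligodendrocyte markers to 0 to 9.02 and 0 to 90.95 TPM (5 of 6), and microglia markers to 0 to 10.5 and 0 to 24.8 TPM (2 of 6). None of 3 dentate granule neuron markers had a circRNA, so DG could not be checked in this way. The part of cell composition in the results for MDGA1, MDGA2 and CNTN5 was not tested, and in whole tissue fewer cells of a type and less RNA per cell cannot be told apart.

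Related adhesion genes were compared at host gene level, first for CB against the mean of the other 7 regions. There limma called 3.34% of all host genes higher and 3.42% lower. Of 14 other contactins and contactin partners 5 were tested and 2 were lower, NRCAM and NFASC, which code for adhesion molecules of the node of Ranvier. NRCAM was at 27.9 ± 21.3 against 130.3 ± 70.5 TPM (log2 difference -2.45, limma adjusted p = 0.019). NFASC was at 95.2 ± 94.8 against 671.2 ± 316.6 TPM (log2 difference -3.49, limma adjusted p = 0.019). Of 32 leucine-rich repeat, teneurin and receptor phosphatase genes 9 were tested, and 1 was lower and 1 higher. LRRC4C, which codes for netrin-G ligand 1, was lower (4.36 ± 5.71 against 79.1 ± 50.4 TPM, log2 difference -3.78, limma adjusted p = 7.1e-06). The teneurin gene ODZ1 was higher (44.9 ± 43.9 against 2.87 ± 6.05 TPM, log2 difference 3.01, limma adjusted p = 0.0024). In CB the values ran from 6.52 to 93.6 TPM for ODZ1 and from 0 to 224.65 TPM for NFASC. Both highest values match whole read numbers of the shallowest library, CB of pool 10F, where 1 read was worth 18.7 TPM. Fits without that library are not given here for these genes. Of 16 SynCAM, IgLON and immunoglobulin genes 9 were tested, and limma called 0 in CB. An unadjusted p under 0.05 in limma was found for 3 of the 5, 5 of the 9 and 0 of the 9 in these lists in turn. It was found for 734 of all 3834 host genes. In the hippocampus against neocortex comparison limma called 2.27% of all host genes. From a list of other neurexins, neuroligins and their partners 8 were tested there, and the latrophilin gene LPHN2 was lower. Its level was 0 in 8 libraries against 11.1 ± 9.78 TPM (limma adjusted p = 0.0041).

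Other regions gave no call among the members. In each region from PFC to DG against the other 7, limma called 0 of 27 member circRNAs. The share of all circRNAs called was 0.164% in PFC, 0.0997% in PCC, 0.217% in TC, 0.387% in PC, 0.199% in OC, 0.088% in CA1 and 0.199% in DG. It called 0 of 6 host genes, where the share of all host genes was 0% in PFC and PC, 0.0522% in PCC, 0.339% in TC, 0.0261% in OC, 0.13% in CA1 and 1.15% in DG. An unadjusted p under 0.05 was found for 0 of 27 circRNAs in TC to 5 in PCC, against 909 and 1511 of all 17050. It was found for 0 to 2 of 6 host genes per region, the 2 in DG, where 482 of all 3834 had it. In PCC the circRNA of CNTN1 at 37889632 to 37903495 was found in pools 10M (26.5 TPM) and 20F (11.9 TPM) and in no other region (log2 difference 1.53 ± 0.37, adjusted p = 0.12). An MDGA2 circRNA at 110039672 to 110118166 reached 58.98 TPM in PCC of pool 10M and differed by 1.65 ± 0.47 (adjusted p = 0.25). MDGA2 as a host gene was 1.69 ± 0.81 higher in PFC (adjusted p = 0.73) and 1.92 ± 0.81 in PCC (adjusted p = 0.65). Voom called MDGA2 higher in PFC (log2 difference 2.17, adjusted p = 0.034, against 0.034 to 0.99 over 14 settings). It also called 2 circRNAs lower there, circMDGA1 and CNTN5 98450344 to 98474141, both at 0 in all 4 PFC libraries, while it moved the median PFC difference of all circRNAs from -0.10 to -0.98.

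For hippocampus (CA1 and DG) against the 5 neocortical regions, limma called 0.416% of all circRNAs and 0 members. It called 2.27% of host genes and 0 of 6 members. An unadjusted p under 0.05 was found for 1 member circRNA and 1310 of all 17050. At host gene level it was found for 2 of 6 members and 572 of all 3834. MDGA2 was at 0 to 83.7 TPM in the 8 hippocampal libraries (median 24.3) and 1.21 to 134.5 TPM in the 20 neocortical ones (median 65.7), a log2 difference of -1.53 ± 0.63 (adjusted p = 0.25). NRXN3 was at 0 to 101.8 TPM (median 0, found in 3 of 8) and 0 to 83.1 TPM (median 17.0, found in 18 of 20), a difference of -1.45 ± 0.66 (adjusted p = 0.29). CNTN5 and CNTN1 differed by -0.76 ± 0.57 and -0.27 ± 0.55.

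No member was called for age or sex. Between 20 and 10 years limma called 0.0293% of all circRNAs and 0 of 27 members, and 0% of host genes and 0 of 6 members. An unadjusted p under 0.05 was found for 2 member circRNAs (896 of all 17050) and 0 member host genes (257 of all 3834). The summed level of CNTN1 was 0 to 93.6 TPM with a median of 36.2 in the 16 libraries of 10 years and 10.3 to 109.8 TPM with a median of 41.4 in those of 20 years, a log2 difference of 0.57 ± 0.44 (adjusted p = 0.85). Its leading circRNA differed by 1.07 ± 0.52 (adjusted p = 0.81). CNTN5 had medians of 20.2 and 20.5 TPM at 10 and 20 years (difference -0.60 ± 0.49), MDGA2 28.3 and 45.1 TPM (0.28 ± 0.54), and NRXN3 21.5 and 12.2 TPM (-0.26 ± 0.55). Each age was 2 pools, measured in 8 regions, so 16 libraries are not 16 animals. Between males and females limma called 0% of circRNAs and host genes and 0 members. An unadjusted p under 0.05 was found for 2 member circRNAs (906 of all 17050) and 0 member host genes (273 of all 3834). CNTN1 had medians of 25.3 TPM in females and 43.4 TPM in males (log2 difference 0.89 ± 0.44, adjusted p = 0.71), and NRXN3 21.5 and 9.33 TPM (-0.87 ± 0.55, adjusted p = 0.83).

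The sparse members are given by their values. CADM2 was found in 8 libraries, at 2.48 to 11.8 TPM, in PFC, PC, OC and DG, and its widest circRNA spanned 181231 bases with 5 reads in 1 library. CNTNAP2, whose circRNAs lay between 184853475 and 185677300 on chromosome 3, was found in 8 libraries of 5 regions, at 1.51 to 20.4 TPM, from 3 exonic and 4 intronic circRNAs. CNTN4 was found in PCC, PC, OC and CB with 1 library each, and reached 39.3 TPM in OC of pool 10M from 38 reads. Its leading circRNA, 58275957 to 58276132 on chromosome 2, spanned 176 bases. No circRNA of CADM2 or CNTNAP2 was found in CB, where their log2 differences were -0.52 ± 0.53 and -0.49 ± 0.57 (limma, adjusted p = 0.63 and 0.68). NLGN1, the neuroligin of the group, had 1 intronic circRNA at chromosome 2, 112977853 to 113056206, with 6 reads.

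Genes with the most similar profile over the 32 libraries were found by Pearson's r of log2 summed levels among host genes above 0 in at least 16 libraries, as a description in which library depth and region are shared by all points. MDGA1 was most like TRIM72 (r = 0.86; 1625 TPM in CB against 11.97 TPM elsewhere), ZNF521 (0.79) and a gene listed without a symbol (0.78). CNTN5 was most like OSBPL1A (0.79; 81.6 against 294.5 TPM), PLEKHA2 (0.74) and IFT43 (0.70), and MDGA2 most like TBC1D22A (0.70), PRIM2 (0.65) and COBL (0.63). For CNTN1 they were LONP1 (0.67), MRE11A (0.64) and MORC3 (0.62), and for NRXN3 SLC25A27 (0.68), CNOT1 (0.67) and NPAT (0.66). The 4 sparse members reached no r above 0.58.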

How the data were processed

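Libraries were prepared from RNase R-treated RNA of 8 regions and 4 pools. Per the study's methods, the authors trimmed reads with Cutadapt, aligned them with BWA, called circRNAs with CIRI2 (at least 2 junction reads) and normalised back-splice reads with DESeq size factors. The values they deposited are headed TPM, and each is a whole multiple of 1 step per library (100% of values within 0.005 TPM or 0.01%), so reads were recovered from these steps. The lowest non-zero value was 2 reads. The steps did not follow size factors recomputed from the recovered reads. DG of pools 10F and 20F had size factors of 0.308 and 0.314, but 1 read was worth 6.02 and 2.05 TPM. Which scaling gave the deposited values was not established. The genome build and the tool versions behind the deposited values are not given in the sources used here.

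Values were tested as log2(TPM + 2.455), where the pseudocount is the median of the lowest non-zero values of the 32 libraries, with limma 3.58.1 in R 4.3.3. Contrasts were each region minus the mean of the other 7 and hippocampus minus neocortex, without covariates, 20 minus 10 years with region and sex as covariates, and male minus female with region and age. P-values were adjusted by the Benjamini-Hochberg method over all 17050 circRNAs that passed the study's filter (at least 3 reads in 2 libraries of a region, in at least 2 regions, or in 1 region and 6 libraries in all, or else 30 reads in all) or over 3834 host genes above 0 in at least 8 libraries. Exact permutation tests enumerated every choice of 4 of 32 libraries with NumPy 2.4.6, and intervals used SciPy 1.17.1. The code was tested on simulated data. The members, gene lists and tests were chosen with earlier results of these data known. Named circRNAs were the 3 with most reads per gene, all calls, and those singled out in the text after their values were seen. Related genes named were those called at host gene level in CB or hippocampus, at most 4 per list. Results for some genes of these lists are not reported here. A pool number stands for the same animals in every region, so the region comparisons were refitted with pool as a replicate block; over 3150 circRNAs the deviations of same-pool libraries from their region means correlated by 0.034 on average (112 pairs), against -0.011 between pools (336 pairs). Alternatives covered the pseudocount, filter, scale, left-out libraries, covariates and voom.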

Additional observations from a re-analysis of the deposited data

Results flagged for a closer look

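Among CNTN1, CNTN5, MDGA2, NRXN3 and circMDGA1, 32 groups of 4 libraries were put to Dixon's test for a library far from the others. It flagged 1 group, at a threshold that chance alone passes in about 1 of 20. This was NRXN3 in DG, where pool 20F was at 4.11 TPM, from 2 reads, and the other pools were at 0. With the others at 0 the Dixon ratio is 1 whatever the value, so the flag does not show that pool 20F was far off. The smallest value above 0 in these DG libraries was 12.03 TPM in pool 10F and 9.09 TPM in pool 10M.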

How the results depend on the processing

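The higher level of circMDGA1 in CB passed in all 13 alternatives in which it was tested (log2 differences 4.60 to 7.99), and the lower level of the CNTN5 host gene in all 14 (-6.15 to -3.08). With pool as a replicate block no member call changed (circMDGA1 4.91, CNTN5 -3.31, MDGA2 -2.66 with an adjusted p of 0.043). In CB, members called higher among circRNAs were 2 without a filter (NRXN3 142879518 to 142913620 added), 2 without the 5 libraries of high clean-read share and 2 without the shallowest CB library (NRXN3 142907852 to 142913620 added in both), and 0 among circRNAs above 0 in at least 16 libraries, where circMDGA1 is not tested; it was 1 whichever pool was left out. Without a filter 1 host gene was higher (MDGA1). Host genes called lower in CB were 1 in place of 2 with a pseudocount of 1, a pseudocount of 0.2455, no filter and voom, and without the shallowest CB library, and 1 to 2 when 1 pool was left out, MDGA2 being the gene lost each time. Members called higher in the other regions were 3 without a filter, 2 without the 5 libraries, and 0 to 2 when 1 pool was left out (CNTN5 98473732 to 98474141 in PC among them), while voom called 2 circRNAs lower and 1 host gene higher in PFC, and 2 CNTN5 circRNAs higher in hippocampus. Voom moved the median of all circRNAs in CB from -0.14 to 0.81 and in hippocampus from -0.18 to 0.98 on the log2 scale. The cause of these changes was not tested. Uncalled differences that changed sign were CNTN5 in hippocampus (-1.51 to 0.18 when 1 pool was left out), with age (-1.26 to 0.066) and with sex (-0.61 to 0.72; voom -0.60), MDGA2 with age (-0.074 to 0.63; -0.035 without the 5 libraries), CNTN1 in hippocampus (voom 0.17), and NRXN3 in CB (-0.63 to 1.04; size factors 0.023; voom 0.56; without the shallowest CB library 0.74) and with age (a pseudocount of 0.2455, 0.028). The planned edgeR test was not run, since the table holds no count column. A minimum of 2 reads kept 17121 circRNAs. Depth limits the zeros most in CB of pool 10F, with 18813 reads.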

Other observations

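Beside the 1 circRNA listed under NLGN1, 2 more carried the gene identifier of NLGN1 together with that of a second gene and no symbol, and were not counted as members. The intronic circRNA at chromosome 2, 113124867 to 113133209 (8343 bases, minus strand), had 399 reads in 22 libraries and all 8 regions, against 6 reads for the circRNA under the symbol. Its level was highest in CA1 (29.8 ± 37.0 TPM, SD, n = 4), DG (29.7 ± 27.0) and TC (27.8 ± 13.98), with 20.0 ± 13.6 in CB, 13.6 ± 7.04 in OC, 10.2 ± 11.8 in PCC, 6.21 ± 7.26 in PC and 4.29 ± 4.97 in PFC. Its CB difference was 0.50 ± 0.86 on the log2 scale (limma, adjusted p = 0.86). The other, 113056060 to 113133209, had 8 reads in PFC of pool 10M. Which of the overlapping genes gives rise to them was not tested.

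1 NRXN3 circRNA, chromosome 7, 141909985 to 141915229, was called on the minus strand with 8 reads in CA1 of pool 10M, while the other 24 were on the plus strand.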
